A study of Homo sapiens with 18 samples.

Results

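The 10 DUSP genes that encode the MAP kinase phosphatases (MKPs) were described here, namely DUSP1, DUSP2, DUSP4, DUSP5, DUSP6, DUSP7, DUSP8, DUSP9, DUSP10 and DUSP16, out of 57500 genes counted. They were taken by name as the members of the family, with earlier results of these data known, and all 10 were detected in all 18 libraries. The libraries came from THP-1, a cell line of human monocytic leukaemia, in the form of 3 stable lines that carried a short hairpin: shNT, the control hairpin line, shNR4A2 and shNR4A3, whose hairpins target the nuclear receptors NR4A2 and NR4A3. Each line was left as control or was treated with 2.5 µg/ml lipopolysaccharide (LPS, a bacterial cell wall component) for 2 hours, with 3 libraries for each of the 6 groups. Each hairpin was represented by 1 line, every line was grown under puromycin, and the control line carried a hairpin as well, so a line and its hairpin cannot be told apart. The labels number the libraries 1 to 3 in each group, and the study's text describes independent experiments. The labels themselves name no separate cultures, so p-values measure the spread between these libraries. Total counts ran from 16171161 to 23929138 per library.

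MKPs are dual-specificity phosphatases that remove both the threonine and the tyrosine phosphate from the activation loop of MAP kinases, and so switch the kinases off. Several are immediate early genes that MAP kinase signalling itself turns on, which makes them a negative feedback. The nuclear members DUSP1, DUSP2, DUSP4 and DUSP5 are inducible, the cytoplasmic members DUSP6, DUSP7 and DUSP9 act mainly on the kinase ERK, and DUSP8, DUSP10 and DUSP16 act mainly on the stress kinases JNK and p38. In macrophages DUSP1 is best known for limiting p38 signalling and cytokine production after LPS.

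The libraries carried the markers of the labelled cells. All 11 THP-1 monocyte markers looked up had counts in all 18 libraries. The highest medians were 711.2 TPM (a transcript level scaled by gene length and library total) for SPI1, the myeloid transcription factor, and 514.8 TPM for LYZ, lysozyme. The lowest were those of CD36, MPO and CD68, at 5.57, 4.39 and 3.13 TPM. Of the T and B cell markers, CD3D, CD3E, CD2 and MS4A1 had medians of 0.211, 0.0635, 0 and 0 TPM, while CD79A had 1.79 TPM. The 8 epithelial and fibroblast markers summed to between 2.02 and 4.03 TPM. With LPS, NR4A2 averaged 62.7 ± 11.7 TPM in shNT, 21.2 ± 6.79 TPM in shNR4A2 and 47.0 ± 12.1 TPM in shNR4A3 (SD, n = 3). NR4A3 averaged 31.7 ± 0.706 TPM in shNT, 34.0 ± 1.86 TPM in shNR4A2 and 17.3 ± 0.808 TPM in shNR4A3 (SD, n = 3), so each targeted gene was lowest in its own line.

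Without LPS, DUSP7 and DUSP6 were the 2 most abundant MKPs in shNT cells. In shNT control cells the order of mean level per length was DUSP7 at 64.0 ± 3.03 TPM, DUSP6 at 46.7 ± 10.0 TPM, DUSP10 at 27.3 ± 3.01 TPM, DUSP9 at 21.5 ± 2.43 TPM and DUSP2 at 17.3 ± 1.16 TPM (SD, n = 3). Each of these 5 was above the next in all 3 libraries, with no overlap. DUSP5 at 8.66 ± 0.432 TPM, DUSP4 at 7.38 ± 2.36 TPM, DUSP1 at 5.55 ± 1.68 TPM, DUSP16 at 4.76 ± 0.882 TPM and DUSP8 at 3.36 ± 0.878 TPM followed, and neighbours among these last 5 overlapped. After LPS the order in shNT was DUSP8, DUSP10, DUSP1, DUSP16, DUSP2, DUSP6, DUSP7, DUSP9, DUSP4 and DUSP5, from 65.0 ± 11.6 TPM for DUSP8 to 11.9 ± 0.472 TPM for DUSP5 (SD, n = 3). DUSP7 and DUSP9 were the sole neighbours in that order whose libraries did not overlap.

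**Figure D1:**
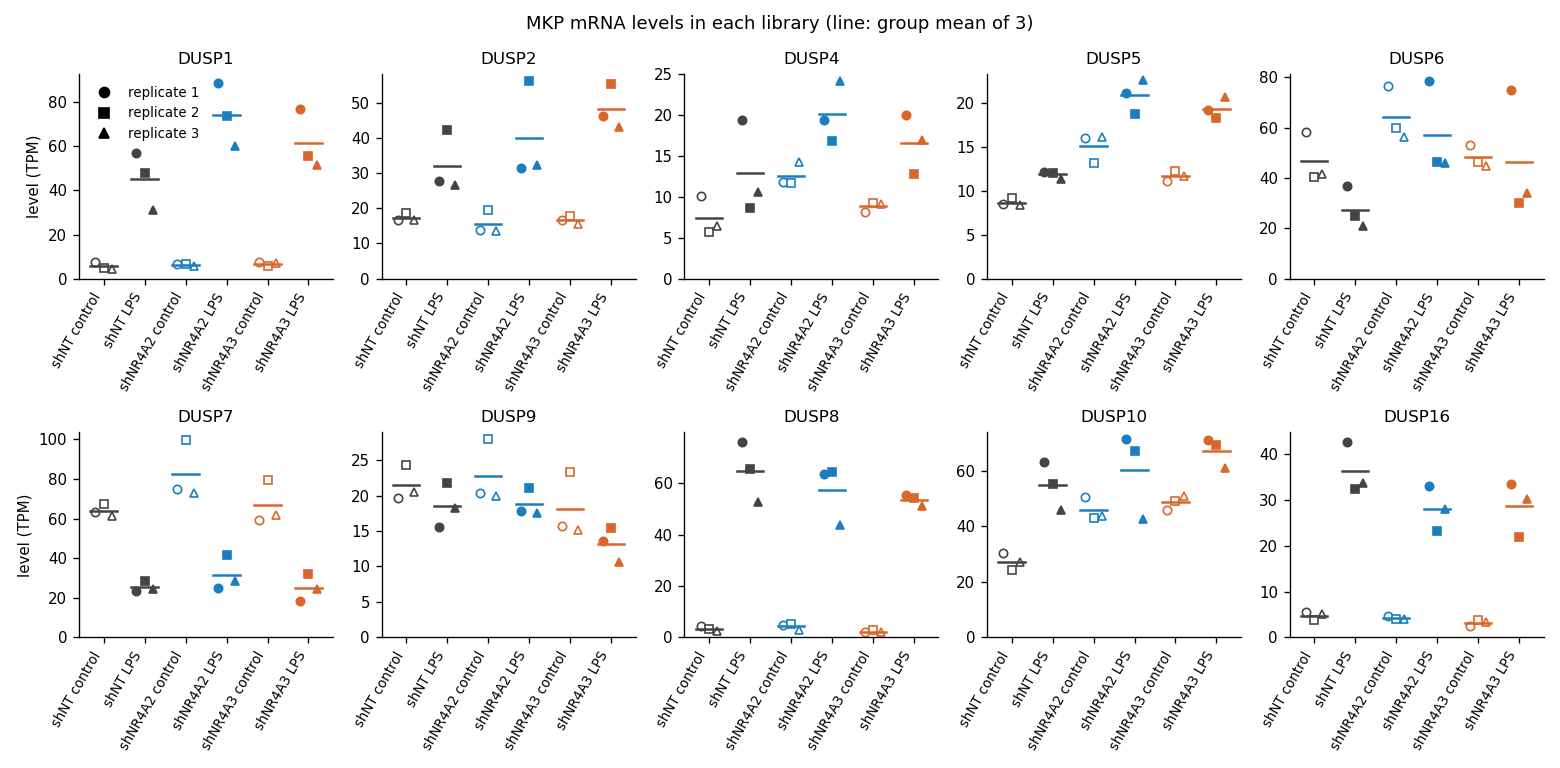
Level in TPM (y axis, linear, from 0) of each of the 10 MKP mRNAs in the 18 libraries, by group (x axis), with open symbols for control and filled symbols for LPS, 1 symbol shape for each replicate number and a line at the mean of 3 libraries. DUSP1, DUSP8 and DUSP16 were low in all 9 control libraries and high in all 9 LPS libraries, DUSP7 showed the opposite, and DUSP9 overlapped between control and LPS in each line.

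The summed level of the 10 mRNAs was higher with LPS than without it in every line, and its makeup differed. In shNT cells the sum was 206.5 ± 15.8 TPM without and 329.7 ± 50.1 TPM with LPS (SD, n = 3). It was 273.4 ± 21.2 and 408.4 ± 55.5 TPM in shNR4A2 and 231.2 ± 16.0 and 379.5 ± 44.4 TPM in shNR4A3 (SD, n = 3). The 3 control libraries lay below the 3 LPS libraries in each line. DUSP7 made up 31.1% ± 2.58 of the sum in shNT control cells and 7.81% ± 1.33 after LPS, and DUSP6 made up 22.5% ± 3.10 and 8.23% ± 1.41 (SD, n = 3). DUSP8 went from 1.61% ± 0.294 to 19.7% ± 0.600 of the sum in shNT (SD, n = 3). With LPS the largest share was that of DUSP8 in shNT, of DUSP1 in shNR4A2 (18.1% ± 1.39) and of DUSP10 in shNR4A3 (17.8% ± 1.22), and in each line the levels of the first 3 genes, DUSP1, DUSP8 and DUSP10, overlapped between neighbours in the order. In bulk RNA, fewer cells that express a gene and less RNA per cell cannot be told apart.

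**Figure D2:**
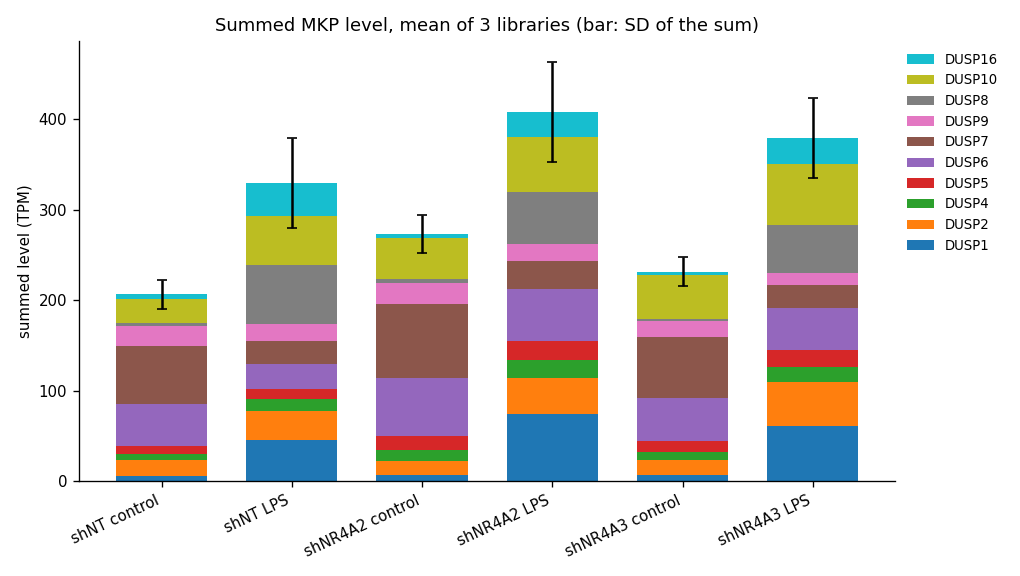
Summed level of the 10 MKP mRNAs in TPM (y axis, from 0) in the 6 groups, as stacked means of 3 libraries with the SD of the sum as error bar. DUSP7 was the largest part of each control bar, and DUSP1, DUSP8, DUSP10 and DUSP16 filled most of the LPS bars.

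The first comparison asked which MKP genes changed with LPS in each line. Changes are log2 fold changes with their standard error (SE) from edgeR's quasi-likelihood test on counts, and a gene was called at an adjusted p (Benjamini-Hochberg over all genes tested) under 0.05. DUSP1, DUSP2, DUSP4, DUSP5, DUSP8, DUSP10 and DUSP16, 7 of the 10, rose in each of the 3 lines, where 11.6% of all genes tested rose in shNT, 9.23% in shNR4A2 and 13.1% in shNR4A3. DUSP7 fell in all 3 lines, DUSP6 fell in shNT, and DUSP9 did not pass the test in any line, where 13.3%, 10.1% and 15.0% of all genes tested fell. The median log2 fold change of the 10 genes was 1.06 in shNT, 0.85 in shNR4A2 and 1.05 in shNR4A3, beside medians over all genes of -0.01, -0.02 and -0.01. The TPM scale ran lower: the median log2 ratio of TPM with LPS over control was -0.23, -0.28 and -0.23 over all genes tested in the 3 lines, so fold changes are read from the count test and TPM only as levels.

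**Figure D3:**
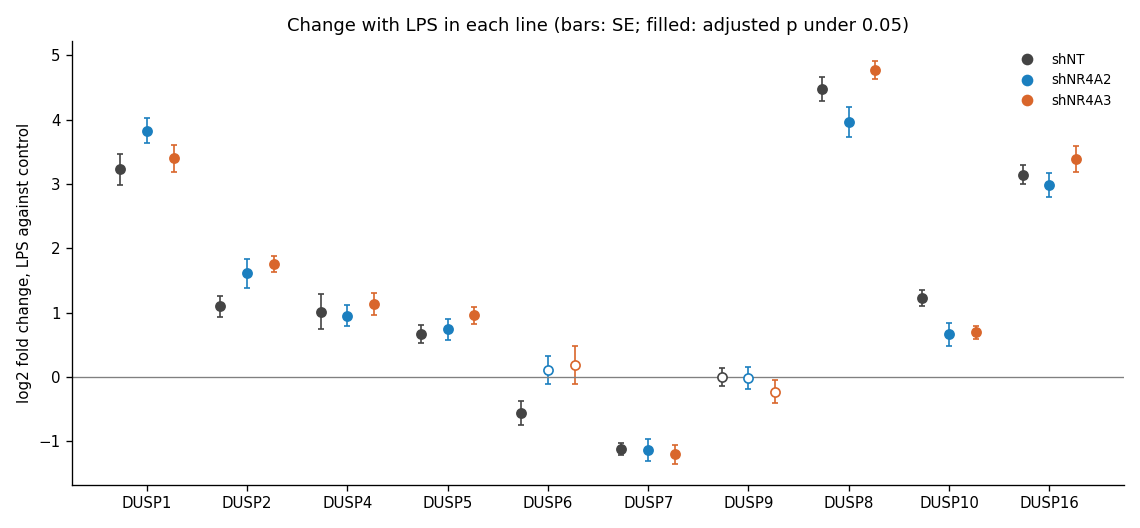
Log2 fold change with LPS against control (y axis, linear) for the 10 MKP genes (x axis) in the shNT, shNR4A2 and shNR4A3 lines, with bars for the SE and filled points for an adjusted p under 0.05. DUSP8, DUSP1 and DUSP16 lay between 2.99 and 4.78 in all 3 lines, DUSP7 near -1.1 to -1.2, and DUSP6 below 0 in shNT and just above 0 in the other lines.

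DUSP8, DUSP1 and DUSP16 rose most, and the bases just upstream of their RefSeq starts are shown because they stand before the most strongly raised members and hold, in DUSP1 and DUSP8, the motif of the cAMP response element (CRE), which ATF and CREB family factors bind. Each run is the 250 bases before the start on GRCh38.p14, on the minus strand, with capitals for the CRE (TGACGTCA) and its core (TGACG) on either strand. They lie at chr5:172771196-172771445 for DUSP1, chr11:1572272-1572521 for DUSP8 and chr12:12562864-12563113 for DUSP16. The DUSP1 run adjoins the gene as counted. The counted DUSP8 and DUSP16 genes reach only to 1571920 and 12562383, so their RefSeq starts lie outside the counted genes.
DUSP1: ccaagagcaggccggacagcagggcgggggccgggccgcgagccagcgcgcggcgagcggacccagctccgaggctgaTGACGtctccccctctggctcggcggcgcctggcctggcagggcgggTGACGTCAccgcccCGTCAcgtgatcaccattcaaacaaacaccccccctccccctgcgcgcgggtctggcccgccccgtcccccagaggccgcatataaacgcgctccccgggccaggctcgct
DUSP8: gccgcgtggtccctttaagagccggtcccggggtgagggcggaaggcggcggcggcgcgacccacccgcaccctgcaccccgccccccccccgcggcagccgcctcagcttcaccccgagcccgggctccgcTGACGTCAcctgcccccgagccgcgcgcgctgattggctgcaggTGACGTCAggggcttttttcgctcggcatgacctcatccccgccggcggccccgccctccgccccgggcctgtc
DUSP16: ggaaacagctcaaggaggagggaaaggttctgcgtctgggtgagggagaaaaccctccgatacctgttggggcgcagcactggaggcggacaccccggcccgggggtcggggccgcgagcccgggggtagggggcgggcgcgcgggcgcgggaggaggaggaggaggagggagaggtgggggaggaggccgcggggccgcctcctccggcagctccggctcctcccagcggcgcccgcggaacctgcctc
DUSP8 held 2 CREs, which began 118 and 74 bases before the start. DUSP1 held 1, which began 125 bases before it, and 2 further cores at 172 and 111 bases. Over windows of 300 bases (250 before and 50 after the start, both strands), 10 RefSeq promoters of 8 of the 10 MKP genes were searched. DUSP4 was left out of the search and DUSP5 had no RefSeq sequence, so neither gene was looked at for motifs. The CRE was found in DUSP1 and DUSP8 and in 1.85% of all 35116 promoters, and the core also in 1 of the DUSP10 promoters and in 24.6% of all. The monomer motif of NR4A receptors (NBRE, AAAGGTCA), the AP-1 site (TGANTCA) and the CArG box of serum response factor were found in none of the 10 promoters and in 1.22%, 7.71% and 1.29% of all. The NF-κB consensus was found in DUSP7 and DUSP9 and in 11.3% of all. These matches describe letters in a window and were not tested as sites.

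Among the nuclear inducible members, DUSP1 (ENSG00000120129, GRCh38 chr5:172768090-172771195), the phosphatase of p38 and JNK, changed most. Its levels in shNT were 7.48, 4.64 and 4.52 TPM without and 57.1, 47.7 and 31.1 TPM with LPS. In shNR4A2 they were 6.56, 6.52 and 5.79 TPM against 88.8, 73.7 and 60.4 TPM, and in shNR4A3 from 5.71 to 7.60 TPM against 76.9, 55.5 and 51.8 TPM. Every LPS library was above every control library. DUSP1 rose by 3.23 ± 0.235 (log2, SE) in shNT (adjusted p = 1.78e-07), a 9.38-fold rise and the 201st largest of 15711 genes tested. It rose by 3.83 ± 0.191 in shNR4A2 (adjusted p = 2.37e-08) and by 3.40 ± 0.208 in shNR4A3 (adjusted p = 5.37e-07).

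DUSP2 (ENSG00000158050, chr2:96143166-96145440), also called PAC-1, an immediate early gene of leukocytes, rose less. In shNT it stood at 16.6, 18.6 and 16.7 TPM without and at 27.7, 42.2 and 26.5 TPM with LPS. In shNR4A3 it stood at 16.6, 17.7 and 15.6 TPM and at 46.1, 55.2 and 43.2 TPM. LPS and control libraries did not overlap in any line, and replicate 2 was the highest of its group in all 6 groups. The log2 fold changes were 1.10 ± 0.164 in shNT (adjusted p = 0.000207), 1.61 ± 0.220 in shNR4A2 (adjusted p = 0.00021) and 1.76 ± 0.123 in shNR4A3 (adjusted p = 1.54e-06).

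DUSP4 (ENSG00000120875, chr8:29333064-29350668), a nuclear phosphatase of ERK and JNK, was variable in shNT, at 10.1, 5.65 and 6.42 TPM without and 19.3, 8.67 and 10.6 TPM with LPS. Replicate 1 was the highest in both of these groups, and the control library of replicate 1 lay above the LPS library of replicate 2. DUSP4 rose by 1.02 ± 0.267 in shNT (adjusted p = 0.0123), by 0.96 ± 0.167 in shNR4A2 (adjusted p = 0.00137) and by 1.14 ± 0.171 in shNR4A3 (adjusted p = 0.000494). In shNT the call was lost with DESeq2 (1.03, adjusted p = 0.0875), without control replicate 2 (0.88, adjusted p = 0.0707) and without control replicate 3 (0.90, adjusted p = 0.0502). Without LPS replicate 1 the shNT change was 0.61 and was still called.

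DUSP5 (ENSG00000138166, chr10:110497838-110511544), the nuclear phosphatase specific to ERK, was tight between replicates. It stood at 8.46, 9.16 and 8.36 TPM in shNT control and 12.2, 12.1 and 11.3 TPM in shNT LPS libraries, with no overlap. The rise was 0.67 ± 0.143 in shNT (adjusted p = 0.00327), 0.74 ± 0.164 in shNR4A2 (adjusted p = 0.00661) and 0.96 ± 0.133 in shNR4A3 (adjusted p = 0.000291). These were smaller log2 changes than those of DUSP1, DUSP2 and DUSP4 in the same line.

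The cytoplasmic ERK phosphatases did not rise. DUSP7 (ENSG00000164086, chr3:52048919-52056550) had 63.5, 67.3 and 61.3 TPM in shNT control and 23.6, 28.3 and 24.2 TPM in shNT LPS libraries. It had 75.0, 99.4 and 72.9 TPM against 24.9, 41.5 and 28.3 TPM in shNR4A2, and 59.0, 79.3 and 62.0 TPM against 18.4, 31.9 and 24.4 TPM in shNR4A3. All 9 LPS libraries were below all 9 control libraries. DUSP7 fell by 1.12 ± 0.0968 on the log2 scale in shNT (adjusted p = 1.12e-06), a 2.18-fold drop, by 1.13 ± 0.172 in shNR4A2 (adjusted p = 0.000501) and by 1.20 ± 0.154 in shNR4A3 (adjusted p = 0.00017). The 3 lines gave nearly the same log2 change, and the differences between lines were -0.01 ± 0.214 for shNR4A2 and -0.08 ± 0.194 for shNR4A3 against shNT.

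DUSP6 (ENSG00000139318, chr12:89347232-89353271), also known as MKP-3 and a classical ERK target gene, passed the test in shNT only. In shNT it had 58.2, 40.4 and 41.6 TPM without and 36.9, 24.7 and 20.8 TPM with LPS, with no overlap. In shNR4A2 it had 76.5, 59.8 and 56.3 TPM against 78.6, 46.3 and 46.1 TPM, and in shNR4A3 53.3, 46.5 and 44.8 TPM against 75.1, 30.1 and 34.0 TPM, with overlap in both. Replicate 1 was the highest in all 6 groups, and with LPS in the knockdown lines it was far above the other 2 libraries. DUSP6 fell by 0.55 ± 0.187 on the log2 scale in shNT (adjusted p = 0.0453), while the values were 0.11 ± 0.217 in shNR4A2 (adjusted p = 0.78) and 0.19 ± 0.297 in shNR4A3 (adjusted p = 0.684), although the mean TPM was lower with LPS in these lines too. The shNT call was lost with DESeq2 (-0.54, adjusted p = 0.239) and in a fit of all 18 libraries (-0.55, adjusted p = 0.234). It was also lost without control replicate 1 (-0.35, adjusted p = 0.201) or 2 (-0.63, adjusted p = 0.0653) and without LPS replicate 2 (-0.45, adjusted p = 0.151) or 3 (-0.39, adjusted p = 0.19). Without LPS replicate 1 the change was -0.82 in shNT, where it was still called, -0.23 in shNR4A2 and -0.39 in shNR4A3. DUSP6 shares 1875 exon bases with an antisense gene, AC024909.2, which had 372 counts over 18 libraries beside 21893 for DUSP6, and the strand setting of the counting is not given in the sources used here, so their reads cannot be told apart.

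DUSP9 (ENSG00000130829, chrX:153642492-153651326), the third ERK phosphatase, had 19.7, 24.2 and 20.5 TPM in shNT control and 15.6, 21.8 and 18.3 TPM in shNT LPS libraries. Groups overlapped in each line and replicate 2 was the highest in all 6 groups, as it was for DUSP2 and DUSP7. The log2 fold changes were 0.01 ± 0.142 in shNT (adjusted p = 0.984), -0.02 ± 0.168 in shNR4A2 (adjusted p = 0.962) and -0.22 ± 0.180 in shNR4A3 (adjusted p = 0.395). The sign of the first 2 flipped when single libraries were left out, and the shNR4A3 value then ran from -0.33 to -0.04.

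The JNK and p38 phosphatases all rose. DUSP8 (ENSG00000184545, chr11:1554044-1571920), directed at JNK and p38, was the least abundant member in shNT control cells at 4.34, 3.11 and 2.64 TPM and the most abundant after LPS at 76.2, 65.8 and 53.0 TPM. It had 4.83, 5.41 and 2.99 TPM against 63.8, 64.5 and 43.8 TPM in shNR4A2, and 2.07, 2.84 and 1.98 TPM against 55.4, 54.4 and 51.1 TPM in shNR4A3. No control library came near an LPS library. The log2 rise was 4.48 ± 0.180 in shNT (adjusted p = 2.55e-10), or 22.3-fold and the 114th largest of 15711 genes, 3.96 ± 0.230 in shNR4A2 (adjusted p = 9.32e-08) and 4.78 ± 0.138 in shNR4A3 (adjusted p = 1.34e-09). Its pseudogene DUSP8P5 had 2147 counts over 18 libraries beside 14151 for DUSP8. DUSP8P5 gave 92 to 99 counts in shNT control and 116 to 132 in shNT LPS libraries, where DUSP8 gave 64 to 114 and 1520 to 2018, and how reads shared by both were assigned was not tested.

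DUSP16 (ENSG00000111266, chr12:12474210-12562383), also called MKP-7 and directed at JNK, had 5.49, 3.78 and 5.02 TPM in shNT control and 42.7, 32.4 and 33.7 TPM in shNT LPS libraries. In shNR4A2 it had 4.71, 4.10 and 4.08 TPM against 33.1, 23.3 and 28.0 TPM, and in shNR4A3 2.58, 3.72 and 3.37 TPM against 33.6, 22.0 and 30.2 TPM. All LPS libraries were above all control libraries. DUSP16 rose by 3.15 ± 0.150 (log2, SE) in shNT (adjusted p = 1.69e-09), by 2.99 ± 0.186 in shNR4A2 (adjusted p = 1.76e-07) and by 3.39 ± 0.201 in shNR4A3 (adjusted p = 4.23e-07).

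DUSP10 (ENSG00000143507, chr1:221701424-221742176), also called MKP-5 and directed at JNK and p38, had 30.4, 24.4 and 27.0 TPM in shNT control and 63.2, 55.3 and 46.1 TPM in shNT LPS libraries. In shNR4A2 it had 50.7, 42.9 and 43.8 TPM against 71.5, 67.3 and 42.5 TPM, and in shNR4A3 45.9, 49.1 and 51.0 TPM against 71.2, 69.5 and 61.2 TPM. Groups overlapped in shNR4A2, where LPS replicate 3 lay below all 3 control libraries. The rise was 1.22 ± 0.124 in shNT (adjusted p = 5.85e-06), 0.66 ± 0.179 in shNR4A2 (adjusted p = 0.0201) and 0.70 ± 0.101 in shNR4A3 (adjusted p = 0.000413). The shNR4A2 call was lost without control replicate 2 (0.63, adjusted p = 0.0832), control replicate 3 (0.62, adjusted p = 0.0674) or LPS replicate 1 (0.49, adjusted p = 0.0945).

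The second question was whether the LPS response of these genes differed between lines. None of the 10 genes had a called difference of the LPS response in either knockdown line against shNT, where 0% of 16674 and 0% of 16428 genes were called by edgeR and 365 and 824 genes had an unadjusted p under 0.05. DESeq2 called 2 and 8 genes, none of them an MKP. For DUSP10 the response differed from that in shNT by -0.55 ± 0.238 in shNR4A2 (unadjusted p = 0.0335, adjusted p = 1.00) and by -0.53 ± 0.163 in shNR4A3 (unadjusted p = 0.00515, adjusted p = 0.847). For DUSP2 the differences were 0.52 ± 0.302 (adjusted p = 1.00) and 0.65 ± 0.214 (unadjusted p = 0.00788, adjusted p = 0.886), and for DUSP6 0.66 ± 0.342 (adjusted p = 1.00) and 0.74 ± 0.419 (adjusted p = 0.999). With 1 library left out, the DUSP10 values ran from -0.74 to -0.36 in shNR4A2 and from -0.62 to -0.41 in shNR4A3. Those of DUSP2 ran from 0.26 to 0.73 in shNR4A2 and from 0.55 to 0.87 in shNR4A3. Leaving out 1 library moved the DUSP6 values between 0.32 (without shNR4A2 LPS replicate 1) and 0.95 (without shNT LPS replicate 1) in shNR4A2, and between 0.17 (without shNR4A3 LPS replicate 1) and 1.02 (without shNT LPS replicate 1) in shNR4A3. So the DUSP6 fall in shNT was not shown to differ from the other lines, except that a fit with no filter on low counts called it in shNR4A3 (0.77, adjusted p = 0.000942). DUSP1 and DUSP8 differed by 0.61 ± 0.338 and -0.51 ± 0.322 in shNR4A2 (adjusted p = 1.00 for both), and with 1 library left out these ran from 0.31 to 0.82 and from -0.75 to -0.33.

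The third comparison set each knockdown line against shNT at the same treatment, in fits without pairing unless a replicate block is named. The shNR4A2 and shNR4A3 comparisons share the shNT libraries, so the side-by-side values below are not independent. Monocyte markers moved with the lines: their summed level was 1115 to 1230 TPM in shNT control, 1628 to 1897 TPM in shNR4A2 control and 1892 to 2355 TPM in shNR4A3 control libraries, and 1191 to 1389, 1742 to 2011 and 1998 to 2430 TPM with LPS. SPI1 and LYZ were the most abundant of them, and LYZ ranged from 155.5 to 1040 TPM over the 18 libraries. The part of these markers in the results below was not tested.

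DUSP10 was higher in both knockdown lines without LPS, and DUSP5 was higher in shNR4A2 with and without LPS and in shNR4A3 with LPS. Without LPS, 3 of the 10 genes were called higher in shNR4A2, DUSP4, DUSP5 and DUSP10, where 3.63% of all genes tested were, and 1 of 10, DUSP10, was called higher in shNR4A3, where 3.91% were. With LPS, 2 of 10 were called higher in shNR4A2, DUSP5 and DUSP6, where 4.31% were, and 2 of 10 in shNR4A3, DUSP2 and DUSP5, where 3.99% were. No member was called lower by edgeR or DESeq2, where 2.82% and 2.65% of all genes were in shNR4A2 without and with LPS, and 3.32% and 2.46% in shNR4A3 by edgeR. An unadjusted p under 0.05 was reached by 2 values below 0, DUSP16 in shNR4A3 without LPS (-0.52, unadjusted p = 0.0142, adjusted p = 0.117) and DUSP9 in shNR4A3 with LPS (-0.44, unadjusted p = 0.0209, adjusted p = 0.137). DUSP9 was called lower in shNR4A3 with LPS with no filter on low counts (-0.46, adjusted p = 0.0492), and DUSP9 and DUSP16 were with the replicate block given below. The median log2 fold change of the 10 genes was 0.38 and 0.36 in shNR4A2 without and with LPS and 0.10 and 0.39 in shNR4A3, beside medians over all genes from -0.01 to 0.00.

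DUSP10 stood at 24.4 to 30.4 TPM in shNT control, 42.9 to 50.7 TPM in shNR4A2 control and 45.9 to 51.0 TPM in shNR4A3 control libraries. No shNT control library reached either knockdown line. The log2 difference was 0.75 ± 0.124 in shNR4A2 (adjusted p = 0.00448) and 0.88 ± 0.108 in shNR4A3 (adjusted p = 0.000262). With LPS the levels overlapped with shNT, at 0.19 ± 0.185 (adjusted p = 0.588) and 0.36 ± 0.119 (adjusted p = 0.11). These 2 differences ran from 0.01 to 0.38 and from 0.26 to 0.47 with 1 library left out.

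DUSP5 had 16.0, 13.1 and 16.1 TPM in shNR4A2 control and 21.2, 18.8 and 22.6 TPM in shNR4A2 LPS libraries. It had 11.1, 12.2 and 11.7 TPM in shNR4A3 control and 19.2, 18.3 and 20.6 TPM in shNR4A3 LPS libraries. Every knockdown library was above every shNT library of the same treatment, whose highest values were 9.16 and 12.2 TPM. The log2 difference in shNR4A2 was 0.80 ± 0.151 without LPS (adjusted p = 0.0092) and 0.88 ± 0.140 with LPS (adjusted p = 0.00763). In shNR4A3 it was 0.48 ± 0.151 without LPS (adjusted p = 0.0787) and 0.77 ± 0.120 with LPS (adjusted p = 0.00574). The 3 called differences of DUSP5 and both of DUSP10 without LPS passed the test under each of 11 alternatives, with adjusted p no higher than 0.0497.

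The other calls were less even between libraries. DUSP4 had 11.8, 11.7 and 14.3 TPM in shNR4A2 control libraries, above the 10.1 TPM of the highest shNT library, a log2 difference of 0.76 ± 0.192 (adjusted p = 0.0363). That call was lost without shNT control replicate 2 (0.62, adjusted p = 0.118) or 3 (0.64, adjusted p = 0.137), without shNR4A2 control replicate 1 (0.80, adjusted p = 0.0591) or 3 (0.68, adjusted p = 0.0888) and in a fit of all 18 libraries (adjusted p = 0.0882). DUSP6 was higher by 1.12 ± 0.266 in shNR4A2 with LPS (adjusted p = 0.0366), where its lowest library, 46.1 TPM, was above the highest shNT LPS library, 36.9 TPM. That call was lost without shNT LPS replicate 2 (1.03, adjusted p = 0.137) or 3 (0.97, adjusted p = 0.118) and without shNR4A2 LPS replicate 1 (0.78, adjusted p = 0.0928). DUSP2 was higher by 0.65 ± 0.158 in shNR4A3 with LPS (adjusted p = 0.0414), at 43.2 to 55.2 TPM against 26.5 to 42.2 TPM in shNT. That call was lost without shNT LPS replicate 1 (0.55, adjusted p = 0.122) or 3 (0.54, adjusted p = 0.128) and without shNR4A3 LPS replicate 1 (0.64, adjusted p = 0.109), 2 (0.58, adjusted p = 0.0511) or 3 (0.71, adjusted p = 0.0725). The calls of DUSP4, DUSP6 and DUSP2 were kept under 6, 8 and 6 of the 11 alternatives, in that order. Among those that kept them was the replicate block given below.

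DUSP1 with LPS lay near the threshold in shNR4A2. All 3 shNR4A2 LPS libraries, 60.4 to 88.8 TPM, were above the 3 of shNT, 31.1 to 57.1 TPM, a log2 difference of 0.78 ± 0.213 (adjusted p = 0.0618). DESeq2 called it (adjusted p = 0.00763), as did the fit of all 18 libraries (adjusted p = 0.0247) and the fit without shNR4A2 LPS replicate 3 (0.89, adjusted p = 0.0463). Other calls were gained by leaving out 1 library: DUSP6 in shNR4A2 without LPS (0.65, adjusted p = 0.0362) and DUSP4 in shNR4A3 without LPS (0.60, adjusted p = 0.0263) without shNT control replicate 1, DUSP4 in shNR4A2 with LPS without shNT LPS replicate 1 (1.12, adjusted p = 0.0301), and DUSP6 in shNR4A3 with LPS without shNR4A3 LPS replicate 2 (1.09, adjusted p = 0.04). With all libraries these differences were 0.46, 0.31, 0.70 and 0.84, in that order, and none was called. With 1 library left out they ran from 0.31 to 0.65, 0.17 to 0.60, 0.47 to 1.12 and 0.25 to 1.11. An exact permutation test of 3 libraries against 3 cannot go below 0.1. It gave 0.1 for DUSP1 in shNR4A2 with LPS, as for every pair of groups that did not overlap.

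Same-numbered libraries deviated together in these comparisons, and blocking on the replicate number called more genes in each of them. With the block, 5 of 10 MKP genes were called in shNR4A2 against shNT without LPS, where 23.6% of all genes were, and DUSP6 (0.47, adjusted p = 0.000304) and DUSP7 (0.35, adjusted p = 0.00309) were added. With LPS 7 of 10 were called, where 28.1% were. Of these DUSP1 (0.79, adjusted p = 1.02e-10), DUSP4 (0.76, adjusted p = 1.40e-07), DUSP7 (0.35, adjusted p = 0.000659) and DUSP2 (0.35, adjusted p = 0.00451) were added as higher, and DUSP16 (-0.31, adjusted p = 0.00115) as lower. In shNR4A3 without LPS 2 of 10 were called, where 14.8% were, with DUSP5 added (0.48, adjusted p = 0.0358). With LPS 8 of 10 were called, where 21.8% were. Of these DUSP6 (0.75, adjusted p = 0.000367), DUSP1 (0.52, adjusted p = 0.00148), DUSP10 (0.36, adjusted p = 0.00169) and DUSP4 (0.47, adjusted p = 0.00429) were added as higher, and DUSP16 (-0.29, adjusted p = 0.0173) and DUSP9 (-0.44, adjusted p = 0.0253) as lower.

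**Figure D4:**
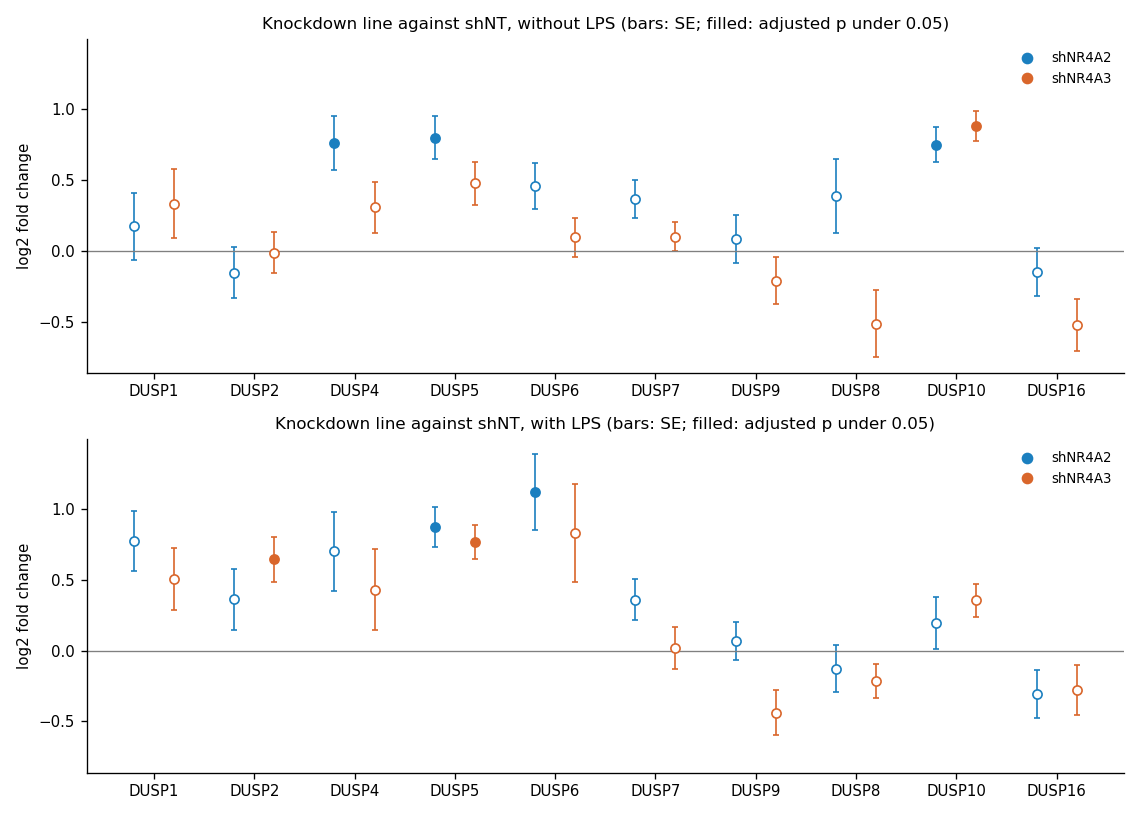
Log2 fold change (y axis, linear) of the shNR4A2 and shNR4A3 lines against shNT for the 10 MKP genes (x axis), without LPS (upper panel) and with LPS (lower panel), with bars for the SE and filled points for an adjusted p under 0.05 without a replicate block. DUSP10 stood at 0.75 and 0.88 without LPS, DUSP5 between 0.48 and 0.88 in all 4 comparisons, and DUSP16 below 0 in all 4.

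The knockdown lines were also set against each other. Without a replicate block, no MKP gene was called between shNR4A2 and shNR4A3, where 3.08% of all genes tested were called without LPS and 2.33% with LPS. DESeq2 called none either. An unadjusted p under 0.05 was reached by 3 and 1 of the 10, beside 14.5% and 17.8% of all genes. Without LPS, DUSP8 had 2.99 to 5.41 TPM in shNR4A2 and 1.98 to 2.84 TPM in shNR4A3, a log2 difference of 0.90 ± 0.256 (adjusted p = 0.0853), and it was called without shNR4A2 control replicate 3 (1.13, adjusted p = 0.0201). DUSP4 differed by 0.46 ± 0.128 (adjusted p = 0.0805), and DUSP9 with LPS by 0.51 ± 0.146 (adjusted p = 0.115). With the replicate block, 4 of 10 were called without LPS, where 11.6% of all genes were: DUSP8 (0.89, adjusted p = 0.00587), DUSP4 (0.46, adjusted p = 0.00691), DUSP6 (0.36, adjusted p = 0.0087) and DUSP7 (0.26, adjusted p = 0.0403). With LPS and the block 6 of 10 were called, where 23.6% were. DUSP7 (0.34, adjusted p = 0.00319), DUSP9 (0.52, adjusted p = 0.00387), DUSP6 (0.36, adjusted p = 0.00966), DUSP1 (0.28, adjusted p = 0.0115) and DUSP4 (0.29, adjusted p = 0.0473) were higher in shNR4A2, and DUSP2 (-0.30, adjusted p = 0.0456) was higher in shNR4A3.

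The kinases of the MAP kinase pathway were counted in the same fits. With LPS in shNT, where 11.6% of all genes tested rose and 13.3% fell, of 11 MAP kinases tested 2 rose and 2 fell, of 7 MAP kinase kinases 1 rose, of 14 MAP kinase kinase kinases 2 rose and 2 fell, and of 10 MAPK-activated kinases 2 fell. MAP3K8 (TPL-2), the kinase that links LPS receptors to ERK, rose from 8.65 ± 1.30 to 78.1 ± 21.5 TPM (SD, n = 3), a log2 change of 3.40 ± 0.194 (SE, adjusted p = 1.22e-08). MAP3K1 fell from 50.5 ± 6.84 to 15.2 ± 1.80 TPM (SD, n = 3), a log2 change of -1.51 ± 0.101 (SE, adjusted p = 7.49e-08). MAP2K3, which activates p38, rose by 0.60 ± 0.102, MAPK6 (ERK3) rose by 0.67 ± 0.0808, and MAPK14 (p38 alpha) had a log2 change of -0.55 ± 0.0970.

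Other phosphatases, the Sprouty and SPRED inhibitors and ERK output genes were counted in the same way. Of 13 atypical dual-specificity phosphatases tested none rose and 2 fell in shNT, beside 11.6% and 13.3% of all genes, and their median was -0.17. DUSP27 fell by 1.49 ± 0.240 from a low level of 3.66 ± 0.334 TPM (SD, n = 3), and DUSP14 fell by 0.70 ± 0.124 on the log2 scale. In shNR4A2 none rose and 2 of 13 fell, beside 9.23% and 10.1% of all genes, and in shNR4A3 none rose and 5 of 12 fell, beside 13.1% and 15.0%. The single MAPK tyrosine phosphatase tested, PTPN7, did not pass the test in shNT or shNR4A2 and fell by 0.29 ± 0.0975 in shNR4A3 (adjusted p = 0.0442). Of the 6 Sprouty and SPRED inhibitors of Ras to ERK signalling, SPRY1 rose by 2.75 ± 0.322 from a low level of 0.537 ± 0.153 TPM (SD, n = 3), SPRED2 rose by 0.65 ± 0.102 and SPRY2 fell by 1.05 ± 0.112 in shNT, and the same 3 genes were called in the same directions in the other lines. Of 8 ERK output genes tested 5 rose and 1 fell in shNT, with a median of 1.08, led by IER3 at 5.85 ± 0.212, PHLDA1 at 3.43 ± 0.114 and EGR1 at 3.15 ± 0.177.

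Between lines, 3.63% and 4.31% of all genes tested were higher in shNR4A2 than in shNT without and with LPS, and 3.91% and 3.99% in shNR4A3. The shares that were lower were 2.82% and 2.65% in shNR4A2, and 3.32% and 2.46% in shNR4A3. RPS6KA2 (RSK3), a kinase downstream of ERK, was higher in all 4 knockdown comparisons, at 3.38 ± 0.706 TPM in shNT control, 11.1 ± 1.84 TPM in shNR4A2 control and 10.1 ± 0.559 TPM in shNR4A3 control cells (SD, n = 3), with log2 differences of 1.71 ± 0.172 and 1.62 ± 0.145 (SE). CCND1, cyclin D1 and an ERK output gene, was higher in all 4, by 1.34 ± 0.128 and 1.29 ± 0.108 in shNR4A2 and by 0.93 ± 0.121 and 1.13 ± 0.0825 in shNR4A3 without and with LPS. Of the 8 ERK output genes 3 and 2 were higher in shNR4A2 without and with LPS and none was lower, and in shNR4A3 1 was higher and 1 lower without LPS and 1 was higher with LPS. The lower one was EGR1 in shNR4A3 control cells, at -0.72 ± 0.175 (adjusted p = 0.0246). MAPK6 was higher in all 4, by 0.41 to 0.65, while MAPK11 (p38 beta) was lower in shNR4A3, at -0.65 ± 0.141 without and -0.67 ± 0.141 with LPS. Of the MAP kinases 2 of 11 and 2 of 10 were higher in shNR4A2 without and with LPS and none lower, and in shNR4A3 1 of 10 was higher and 2 of 10 were lower at both. MAPK13 (p38 delta) was called in opposite directions, higher by 0.52 ± 0.135 in shNR4A2 and lower, at -0.60 ± 0.159, in shNR4A3 without LPS, and the difference between the knockdown lines was 1.11 ± 0.162 (adjusted p = 0.00211). No Sprouty or SPRED gene and no atypical dual-specificity phosphatase was called in any of the 4 comparisons with shNT.

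The genes whose log2 CPM (counts scaled to the library total) followed each MKP most closely over the 18 libraries were then listed, with Pearson's r among 16870 genes as a description, since the 18 points share 6 groups. For DUSP8 they were JUN (0.994), TNF (0.993) and CCL3 (0.993), for DUSP16 CCL20 (0.991), PTGS2 (0.991) and PLAGL2 (0.991), and for DUSP1 RHOH (0.994), TICAM1 (0.993) and HCAR3 (0.993). DUSP2 was closest to JUNB (0.959), KDM6B (0.958) and RNF223 (0.955). DUSP4 was closest to IL7R (0.947), TFE3 (0.938) and MIR22HG (0.934), and DUSP5 to CCND1 (0.981), IL7R (0.967) and ANXA5 (0.961). DUSP7 was closest to SH3BP5L (0.981), SLC45A4 (0.978) and TEDC2 (0.978), and DUSP10 to COQ10B (0.952), AKIRIN1 (0.946) and MAPK6 (0.946). The closest genes were less close for DUSP6, with CA14 (0.919), CD14 (0.884) and ZFAND3 (0.876), and for DUSP9, with BARX1 (0.858), RNF144A (0.853) and LINC02169 (0.839). Among the MKPs themselves DUSP8 and DUSP16 were the closest pair at 0.986, followed by DUSP1 and DUSP8 at 0.970.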

How the data were processed

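RNA from 18 libraries of THP-1 cells was poly(A) selected and sequenced as paired reads. The authors deposited raw counts per Ensembl gene with merged exon length, and the submitters' processing notes name Trimmomatic 0.36, STAR 2.5.2b, featureCounts, Subread 1.5.2 and GRCh38. The strand setting and annotation release are not given in the sources used here. Symbols came from GENCODE 29 (56898 of 57500 genes matched). TPM was computed here from the counts and the deposited length. Each comparison used its own 6 libraries (12 for a difference between LPS responses) in edgeR 4.0.16 (filterByExpr, TMM, quasi-likelihood F test) under R 4.3.3, with Benjamini-Hochberg adjustment over all genes. Promoter sequences were taken from RefSeq (GRCh38.p14). No 2 libraries were identical.

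Alternatives were DESeq2 1.42.0, relative log expression size factors, no filter, the replicate number as a block, 1 fit of all 18 libraries, and each library left out. Deviations of same-numbered libraries from their group means correlated at 0.159 to 0.533 in the 6 comparisons between lines and at 0.203 to 0.322 for LPS in the knockdown lines, so the label numbers were taken to pair these libraries. The main tests did not use this pairing, which enters only through the replicate block. In shNT with LPS the lowest was 0.0598. Pathway genes named are up to 3 called genes per list and comparison with the largest change, and all 10 MKP genes are named. The members and lists were chosen with earlier results of these data known. The value of 1 marker gene is not reported here.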

Additional observations from a re-analysis of the deposited data

How the results depend on the processing

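Of 1330 values of the 10 MKP genes in 11 comparisons under an alternative, 1211 kept their direction and their side of the threshold, 25 lost a call, 43 gained one and 51 changed sign, and none of the 51 was called with either setting. Counts of called MKP genes for LPS in the 3 lines stayed within 1.5 times under every alternative run, and DUSP1, DUSP2, DUSP5, DUSP7, DUSP8 and DUSP16 kept their LPS calls under all of them.

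With the replicate block, the counts were 5 and 7 for shNR4A2 against shNT without and with LPS, 2 and 8 for shNR4A3, and 4 and 6 between the knockdown lines, and the block changed no LPS call. All genes called with the block were 3733 and 4385, 2267 and 3401, and 1800 and 3666 in these comparisons, beside 1019 and 1085, 1108 and 1005, and 480 and 362 without it. For the LPS response differences the block called 8 and 22 genes and no MKP. In shNT with LPS, where the numbers were not taken as pairs, the block called 5029 genes beside 3909. With no filter on low counts, the counts were 5 and 4 for shNR4A2 without and with LPS, 6 for shNR4A3 with LPS, 1 between the knockdown lines without LPS and 1 for the LPS response in shNR4A3, beside 4.21%, 4.57%, 4.57%, 2.19% and 0.314% of all genes tested. In 1 fit of all 18 libraries 2 were called for shNR4A3 without LPS, beside 5.19% of all genes. With 1 library left out, the counts ran from 2 to 4 for shNR4A2 without LPS (beside 3.19% to 6.92% of all genes) and from 1 to 3 with LPS (2.13% to 9.23%). They ran from 1 to 2 for shNR4A3 without LPS (4.12% to 6.16%) and with LPS (2.38% to 10.6%), and from 0 to 1 between the knockdown lines without LPS (1.56% to 2.97%). Causes were not tested.

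Signs changed for values that were not called, mostly with 1 library left out. For LPS the log2 changes ran from -0.08 to 0.13 for DUSP9 in shNT, from -0.12 to 0.17 for DUSP9 and from -0.23 to 0.29 for DUSP6 in shNR4A2, and from -0.39 to 0.46 for DUSP6 in shNR4A3. DUSP9 in shNR4A2 was 0.00 with relative log expression size factors. For shNR4A2 against shNT they ran from -0.11 to 0.21 for DUSP9 without LPS, and from -0.25 to 0.02 for DUSP8 and -0.04 to 0.17 for DUSP9 with LPS. For shNR4A3 against shNT they ran from -0.07 to 0.07 for DUSP2, -0.01 to 0.29 for DUSP6 and -0.01 to 0.17 for DUSP7 without LPS, and from -0.15 to 0.17 for DUSP7 with LPS, which was -0.00 with no filter. Between the knockdown lines with LPS they ran from -0.06 to 0.87 for DUSP6, -0.03 to 0.24 for DUSP8, -0.34 to 0.03 for DUSP10 and -0.21 to 0.13 for DUSP16. Differences of the LPS response ran from -0.36 to 0.36 for DUSP4, -0.19 to 0.17 for DUSP7, -0.14 to 0.17 for DUSP9 and -0.32 to 0.00 for DUSP16 in shNR4A2, and from -0.12 to 0.38 for DUSP1, -0.18 to 0.54 for DUSP4 and -0.25 to 0.08 for DUSP7 in shNR4A3.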
